A study of Saccharomyces cerevisiae with 44 samples.

Results

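The pentose phosphate pathway of budding yeast was followed through 10 genes, found by their systematic names among the 6692 features of the count tables. They are ZWF1 (YNL241C), SOL3 (YHR163W), SOL4 (YGR248W), GND1 (YHR183W), GND2 (YGR256W), TKL1 (YPR074C), TKL2 (YBR117C), TAL1 (YLR354C), NQM1 (YGR043C) and RKI1 (YOR095C). Of these, 4 form the major isoforms (SOL3, GND1, TKL1, TAL1), 4 are their stress-induced counterparts (SOL4, GND2, TKL2, NQM1), and ZWF1 and RKI1 have no second isoform in the set. All 10 passed the filter on low counts, as did 6344 features in all.

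The study measured the RNA of asynchronous wild-type W303 cells, a standard laboratory background, grown at 30 °C and harvested after 1 of 6 replication inhibitors or a vehicle had been added. Every group had 2 cultures, each sequenced as 2 technical replicates, so 11 groups gave 22 cultures and 44 libraries of 6.82 to 15.08 M counts. In the rich medium YEPD, HU at 50 mM and MMS at 0.002% shared the water control C0, and CPT at 100 µg/mL had the control CC, which is 1 N NaOH. In the synthetic medium SC, AD at 50 µg/mL had the control CA with 2% acetone, DOX at 25 µg/mL the water control CD, and MTX at 150 µg/mL the control CM with 0.1 N NaOH. HU, MMS, CPT, DOX and MTX are the usual abbreviations of hydroxyurea, methyl methanesulfonate, camptothecin, doxorubicin and methotrexate, and AD is given as the labels give it. Drugs were given at their IC50, and the hours of exposure are not given in the labels. The cultures were bulk populations, so a change of RNA in every cell and a change in which cells made up the culture cannot be told apart. P-values rest on 2 cultures per group.

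The pathway runs beside glycolysis. Its oxidative branch turns glucose 6-phosphate into ribulose 5-phosphate and yields NADPH, the reductant used for biosynthesis, for deoxyribonucleotide synthesis through thioredoxin and for defence against oxidants. Zwf1 carries out the entry step, the lactonases Sol3 and Sol4 open its product, and the 6-phosphogluconate dehydrogenases Gnd1 and Gnd2 make the second NADPH. The isomerase Rki1 then forms ribose 5-phosphate, the sugar of nucleotides, and the transketolases Tkl1 and Tkl2 with the transaldolases Tal1 and Nqm1 return carbon to glycolysis. In yeast the second isoforms are known as genes of the general stress and diauxic responses, which are driven by Msn2 and Msn4 through the stress element AGGGG.

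The results turn on GND2 and RKI1, which moved in opposite directions, and on GND1, the major isoform of GND2, which passed the test in no treatment. Their upstream sequences are therefore shown, from 300 to 101 bases before the start codon, in the R64 reference (RefSeq), whose coordinates for all 10 genes equal those of the deposited tables. GND2 lies on chromosome VII from 1004624 to 1006102, GND1 on chromosome VIII from 470960 to 472429 and RKI1 on chromosome XV from 503552 to 504328, each an annotated coding gene. The windows are chrVII:1004324-1004523 on the plus strand for GND2, chrVIII:470660-470859 on the plus strand for GND1 and chrXV:504429-504628 on the minus strand for RKI1. Capitals mark the stress element AGGGG, the Yap1 element TTANTAA and the Stb5 element CGGNNTTA on either strand. Sequences read 5′ to 3′ in the direction of the gene.
GND2: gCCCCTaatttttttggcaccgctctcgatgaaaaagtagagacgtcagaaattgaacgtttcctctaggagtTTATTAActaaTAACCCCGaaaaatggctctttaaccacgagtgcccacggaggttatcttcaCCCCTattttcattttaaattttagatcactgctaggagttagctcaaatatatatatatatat
GND1: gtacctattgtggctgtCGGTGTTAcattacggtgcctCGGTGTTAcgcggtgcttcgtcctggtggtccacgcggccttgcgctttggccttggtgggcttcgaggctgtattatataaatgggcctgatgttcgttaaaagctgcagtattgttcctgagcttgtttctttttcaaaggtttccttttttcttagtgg
RKI1: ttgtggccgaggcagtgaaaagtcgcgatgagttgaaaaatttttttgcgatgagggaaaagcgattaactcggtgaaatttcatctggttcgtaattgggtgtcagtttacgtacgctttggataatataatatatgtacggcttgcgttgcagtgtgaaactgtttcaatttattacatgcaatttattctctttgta
In GND2 the first and the last capitals of the printed stretch are the stress element read on the opposite strand, 299 and 164 bases before the start codon. Between them stand a Yap1 element at 227 and a Stb5 element at 216, the latter also on the opposite strand. GND1 has no stress element in its 300 bases and instead carries 2 Stb5 elements, at 283 and 262. RKI1 held none of these motifs, nor the Gcn4 and Bas1 element TGACTC.

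The same 300 bases were searched in 5985 promoters of the genome, on both strands. A stress element was present at least once in 22.2% of them, at least 2 times in 3.5% and at least 3 times in 0.6%. A Yap1 element was present in 18.7%, a Stb5 element in 8.4% and the Gcn4 and Bas1 element in 7.8%, and 0.3% held 2 Stb5 elements or more. Among the 10 genes, ZWF1 carried 5 stress elements, between 235 and 68 bases before the start codon. NQM1 carried 2, at 176 and 165, and SOL3, SOL4, TKL1, TKL2 and TAL1 carried 1 each. Those of SOL3 and TKL2 lay 18 and 77 bases before the start codon, where the untranslated start of the transcript can lie. ZWF1 and TKL2 also had a Yap1 element, and SOL3 had a Stb5 element. The stress element was thus present upstream of all 4 stress-induced isoforms and of 3 of the 4 major ones. These are matches of letters and do not show that a factor bound there.

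Per length, the major isoforms stood far above their counterparts. Over the 22 cultures the mean level in RPKM, the counts scaled to depth and to gene length, was 675.5 for TAL1, 657.7 for GND1, 614.4 for TKL1, 248.2 for RKI1, 232.8 for SOL3 and 122.4 for ZWF1. The 4 stress-induced isoforms followed, with NQM1 at 30.0, GND2 at 27.1, TKL2 at 16.4 and SOL4 at 14.4 RPKM. Together the 10 genes took between 0.308% (MMS culture 2) and 0.457% (CPT culture 2) of all counts. The levels of the minor genes rested on fewer reads, down to 59 counts for SOL4 in a culture, whereas no culture had under 15409 counts for GND1.

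The isoforms of a pair differed in sequence. GND1 and GND2 were identical at 78.6% of bases and 87.8% of residues, TKL1 and TKL2 at 69.2% and 71.4%, TAL1 and NQM1 at 68.2% and 68.1%, and SOL3 and SOL4 at 56.8% and 47.8%. The longest run of identical bases was 20 in the GND pair, 17 in the TKL pair, 17 in the TAL1 and NQM1 pair and 8 in the SOL pair, and no run of 50 was shared. Another annotated feature overlapped GND1 over 453 bases (30.8% of its length) and TKL2 over 335 bases (16.4%). Reads in those stretches fell on more than 1 feature and were left out of the counts. In every group this lowers the level of GND1 beside GND2 and that of TKL2 beside TKL1. The shares and ratios given below were not corrected for it.

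**Figure D1:**
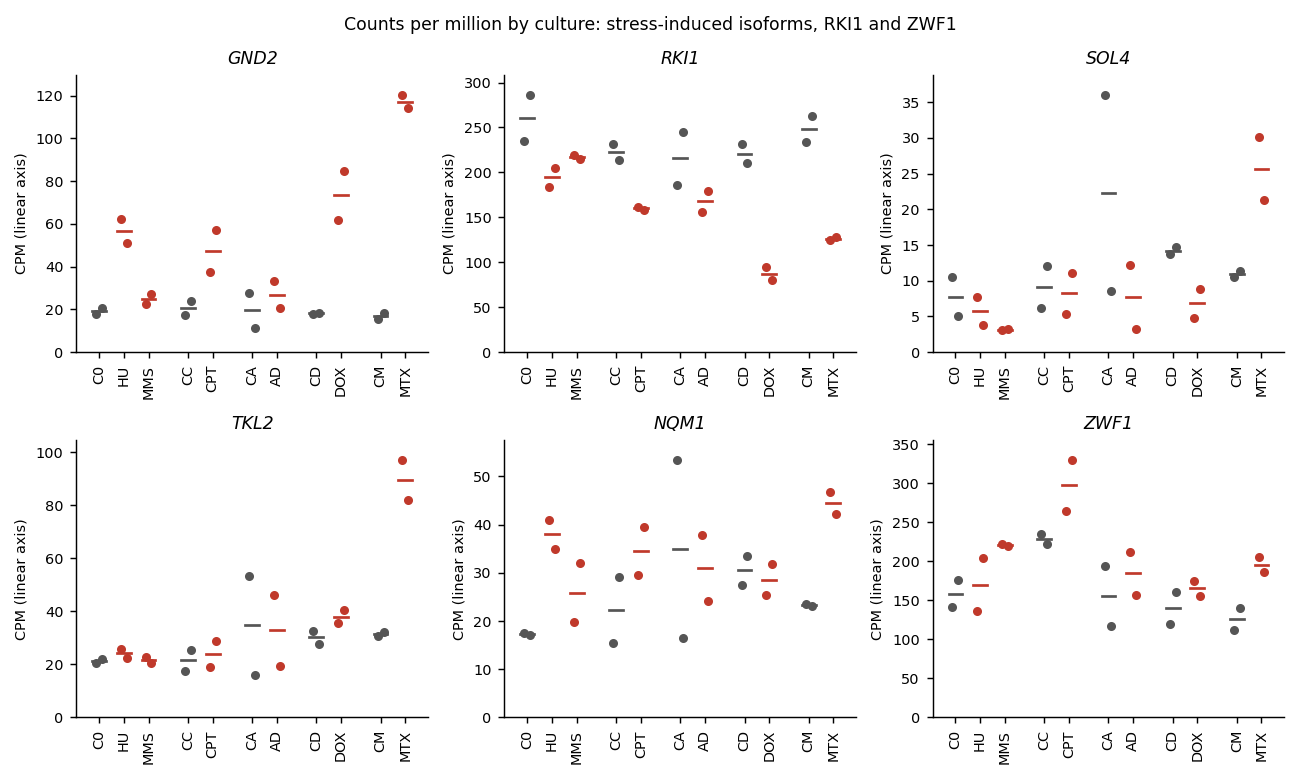
CPM by culture (points; 2 per group) with the group mean (line) for the 4 stress-induced isoforms, RKI1 and ZWF1; vehicles are grey and treatments red, and each panel has its own linear axis from 0. GND2 reached 114.1 and 120.2 CPM with MTX against 15.7 and 18.3 CPM with its vehicle, while RKI1 fell to 80.2 and 94.8 CPM with DOX against 210.0 and 231.9 CPM with water.

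GND2, the stress-induced 6-phosphogluconate dehydrogenase, rose in 3 of the 6 treatments. With MTX it stood at 114.1 and 120.2 CPM (counts scaled to depth by TMM) in the 2 cultures, against 15.7 and 18.3 CPM in CM. The log2 fold change was 2.78 (SE 0.35; 6.89-fold; edgeR adjusted p = 0.000104 over all genes). With DOX its values were 61.9 and 84.7 CPM against 18.0 and 18.5 CPM in CD, a log2 change of 2.01 (SE 0.34; edgeR adjusted p = 0.000308). Every MTX and DOX culture lay far above all vehicle cultures.

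In rich medium GND2 stood at 62.3 and 51.1 CPM with HU against 17.7 and 20.8 CPM in C0, a log2 change of 1.56 (SE 0.34; edgeR adjusted p = 0.0152). That call was lost when any 1 of these 4 cultures was left out, with an adjusted p between 0.0519 and 0.118 and a log2 fold change between 1.41 and 1.70. With CPT the cultures held 37.3 and 56.9 CPM against 17.3 and 24.1 CPM in CC, which did not overlap and gave a log2 fold change of 1.18 (SE 0.34). Its edgeR adjusted p of 0.0749 missed the threshold of 0.05 (DESeq2, an alternative, called it). With MMS the values of 22.5 and 27.1 CPM lay just above the C0 cultures (log2 0.37, SE 0.34, adjusted p = 0.561). With AD they were 33.1 and 20.6 CPM, overlapping the CA cultures at 27.9 and 11.1 CPM (log2 0.46, SE 0.34, adjusted p = 0.476).

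Ordered by the group mean, GND2 ran from MTX (117.2 ± 4.34 CPM, SD, n = 2) through DOX (73.3 ± 16.1), HU (56.7 ± 7.87) and CPT (47.1 ± 13.8) to AD (26.9 ± 8.83) and MMS (24.8 ± 3.26). The 5 vehicles closed the order, with CC at 20.7 ± 4.83, CA at 19.5 ± 11.9, C0 at 19.2 ± 2.2, CD at 18.2 ± 0.357 and CM at 17.0 ± 1.85 CPM. Neighbours did not overlap between MTX and DOX or between CPT and AD. All other neighbours in this order overlapped. The 10 vehicle cultures of both media lay between 11.1 and 27.9 CPM. A test of whether the 6 responses differed from one another, added after the values had been seen, gave an edgeR F of 8.36 (adjusted p = 0.0058). It passed the threshold for 24.8% of all genes tested. Between the treatments given in YEPD (HU, MMS and CPT) and in SC (AD, DOX and MTX), drug, medium and vehicle cannot be told apart.

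RKI1, the gene of the ribose 5-phosphate isomerase, lay below its vehicle in every culture of all 6 treatments and fell past the threshold in 2. With DOX it stood at 94.8 and 80.2 CPM against 231.9 and 210.0 CPM in CD, a log2 change of -1.34 (SE 0.15; 0.396 of the vehicle level; edgeR adjusted p = 7.05e-06). With MTX it stood at 124.4 and 128.0 CPM against 233.8 and 262.3 CPM in CM, a log2 change of -0.98 (SE 0.15; edgeR adjusted p = 0.000347). Both calls held in each fit without 1 of the cultures.

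In the other treatments the RKI1 differences were smaller. The values were 183.7 and 205.1 CPM with HU and 219.5 and 214.5 CPM with MMS, against 234.9 and 286.0 CPM in C0 (log2 -0.42 and -0.26, adjusted p = 0.137 and 0.28). CPT cultures held 161.5 and 158.3 CPM against 231.9 and 213.9 CPM in CC (log2 -0.48, SE 0.14, edgeR adjusted p = 0.0928). AD cultures held 156.5 and 179.0 CPM against 186.5 and 245.3 CPM in CA (log2 -0.36, SE 0.14, adjusted p = 0.17). None of these 4 passed the threshold in edgeR, and DESeq2 called the one with CPT.

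By group mean RKI1 ran from C0 (260.5 ± 36.1 CPM, SD, n = 2), CM (248.1 ± 20.2), CC (222.9 ± 12.7), CD (221.0 ± 15.5), MMS (217.0 ± 3.51) and CA (215.9 ± 41.5) to HU (194.4 ± 15.1), AD (167.8 ± 15.9), CPT (159.9 ± 2.26), MTX (126.2 ± 2.58) and DOX (87.5 ± 10.3). Neighbours did not overlap between CM and CC, HU and AD, CPT and MTX, and MTX and DOX. The other neighbours overlapped. The 6 responses of RKI1 differed from one another (F 7.93, edgeR adjusted p = 0.00642). The same test did not pass for the other 8 genes, where the adjusted p lay between 0.104 (SOL3) and 0.855 (GND1). Of all genes tested, 24.8% passed it.

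**Figure D2:**
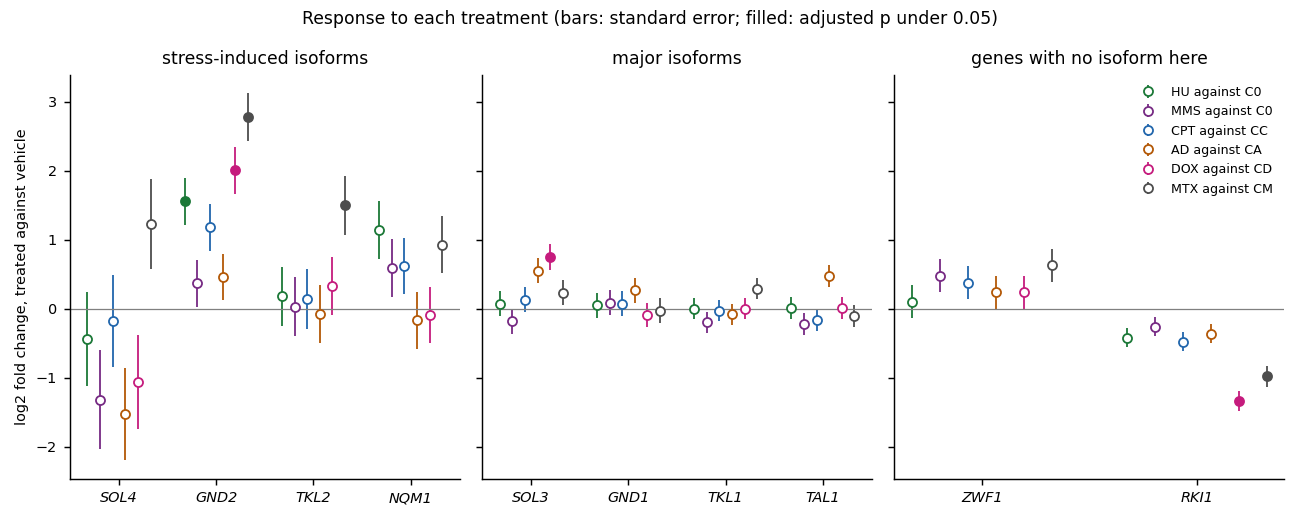
Log2 fold change of each gene, treated against its own vehicle, with the standard error as bars and filled points for an edgeR adjusted p under 0.05; HU and MMS share the C0 cultures. GND2 is filled for HU, DOX and MTX, RKI1 for DOX and MTX, TKL2 for MTX and SOL3 for DOX, while no point of GND1, TKL1, TAL1, ZWF1, SOL4 or NQM1 is filled.

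Counted over the set, 1 of the 10 genes rose with HU and none fell, where 2.63% of all genes tested rose and 0.93% fell. With DOX 2 rose and 1 fell, against 21% of all genes that rose and 20.2% that fell, so that 3 of 10 was not above the background. With MTX 2 rose and 1 fell, against 10.8% and 9% of all genes. The median log2 fold change of the 10 genes was 0.463 with MTX, where that of all genes was -0.03. In the other 5 treatments the median of the 10 ranged from -0.078 (MMS) to 0.102 (CPT).

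With MMS, CPT and AD no gene of the 10 passed the threshold in edgeR. The background there was 6.07% of all genes higher and 4.7% lower with MMS, 1.91% higher and 0.898% lower with CPT, and 2.02% higher and 1.12% lower with AD. At an unadjusted p under 0.05 the counts were 0 of 10 with MMS, 2 with CPT and 4 with AD, where 24.6%, 15.5% and 19.5% of all genes had one. DESeq2 called 0, 2 and 0 of them. HU set directly against MMS, which share a vehicle and a medium, also gave no edgeR call among the 10, where 2.41% of all genes were higher and 2.11% lower with HU. There GND2 had 51.1 and 62.3 CPM with HU against 22.5 and 27.1 CPM with MMS (log2 1.19, SE 0.34, edgeR adjusted p = 0.0566). It was the 1 gene of the 10 with an unadjusted p under 0.05, as had 18.8% of all genes, and the 1 gene called by DESeq2.

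TKL2, the second transketolase, rose with MTX. Its cultures held 97.0 and 81.9 CPM against 30.9 and 32.2 CPM in CM, a log2 change of 1.5 (SE 0.43; 2.83-fold; edgeR adjusted p = 0.0215). The groups were far apart, but the call was lost without any 1 of the 4 cultures, with an adjusted p between 0.065 and 0.127. In the other 5 treatments the log2 fold change of TKL2 lay between -0.08 (AD) and 0.33 (DOX), and none passed in the edgeR fit over all groups. The DOX cultures, at 35.6 and 40.4 CPM, did not overlap those of CD, at 32.7 and 27.8 CPM (edgeR adjusted p = 0.553). A fit of only these groups, an alternative, called TKL2 for DOX, as it did 59.2% of all genes. The highest levels outside MTX were in CA culture 1 (53.3 CPM) and AD culture 1 (46.4 CPM), where culture 2 of the same groups held 16.2 and 19.4 CPM.

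SOL3, the major lactonase, was the only major isoform past the threshold in any treatment. With DOX it stood at 251.3 and 238.2 CPM against 138.1 and 153.2 CPM in CD, a log2 change of 0.75 (SE 0.19; 1.68-fold; edgeR adjusted p = 0.00434). Without 1 culture the adjusted p ranged from 0.0183 to 0.0486. With AD it stood at 223.6 and 230.0 CPM against 145.7 and 163.9 CPM in CA (log2 0.55, SE 0.18, edgeR adjusted p = 0.105). For SOL3 the AD and CA cultures did not overlap. Nor did they for TAL1, with 911.7 and 836.2 CPM against 634.2 and 626.7 CPM (log2 0.47, SE 0.16, edgeR adjusted p = 0.115). They were also separate for GND1, with 1195.8 and 1033.8 CPM against 950.9 and 896.0 CPM (log2 0.27, SE 0.18, edgeR adjusted p = 0.443).

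SOL4, the second lactonase, passed the threshold in no treatment in the edgeR fit over all groups. Its log2 fold change was 1.23 with MTX (SE 0.65, edgeR adjusted p = 0.198), from 10.5 and 11.4 CPM in CM to 30.1 and 21.3 CPM. With DOX it was -1.06 (SE 0.68, adjusted p = 0.228), from 13.7 and 14.7 CPM in CD to 4.82 and 8.83 CPM. With MMS it was -1.32 (SE 0.72, adjusted p = 0.282), from 10.5 and 5.06 CPM in C0 to 3.05 and 3.23 CPM. In each of these 3 treatments the cultures did not overlap, and fits of only the groups compared, an alternative, called all 3. The largest difference was with AD, at -1.53 (SE 0.67, unadjusted p = 0.0371, adjusted p = 0.221). The AD cultures held 12.2 and 3.24 CPM and the CA cultures 36.0 and 8.53 CPM, which overlapped.

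NQM1, the second transaldolase, stood at 41.0 and 34.9 CPM with HU against 17.5 and 17.0 CPM in C0 (log2 1.14, SE 0.42, edgeR adjusted p = 0.166). With MTX it stood at 46.8 and 42.2 CPM against 23.5 and 23.2 CPM in CM (log2 0.93, SE 0.41, adjusted p = 0.121). Both pairs of groups were separate, and neither passed in the edgeR fit over all groups. Fits of only the groups compared, an alternative, called NQM1 for both. With MMS and CPT its log2 fold changes were 0.59 and 0.62 (edgeR adjusted p = 0.426 and 0.524), also with separate groups. With AD and DOX they were -0.17 and -0.09.

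ZWF1, the entry enzyme and the one held to set the flow into the pathway, gave positive log2 fold changes in all 6 treatments, from 0.10 (HU) to 0.63 (MTX). With MTX its cultures held 204.9 and 186.7 CPM against 112.3 and 140.5 CPM in CM (SE 0.24, edgeR adjusted p = 0.0722; called by DESeq2). With MMS they held 222.6 and 219.4 CPM against 141.1 and 175.7 CPM in C0 (log2 0.48, edgeR adjusted p = 0.225). With CPT they held 265.0 and 329.2 CPM against 235.2 and 222.0 CPM in CC (log2 0.38, adjusted p = 0.488). None of the 6 passed the threshold in the edgeR fit over all groups. Fits of only the groups compared, an alternative, called ZWF1 for MMS and MTX.

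The remaining major isoforms kept narrow ranges. GND1 had log2 fold changes between -0.09 (DOX) and 0.27 (AD), TKL1 between -0.20 (MMS) and 0.29 (MTX), and TAL1 between -0.22 (MMS) and 0.47 (AD). Standard errors were 0.15 to 0.18, and no adjusted p was under 0.115. The highest group mean of GND1 was 1.44 times its lowest, against 6.88 times for GND2. For TKL1 and TKL2 the ratios were 1.43 and 4.2, for TAL1 and NQM1 1.52 and 2.59, and for SOL3 and SOL4 1.84 and 8.18.

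**Figure D3:**
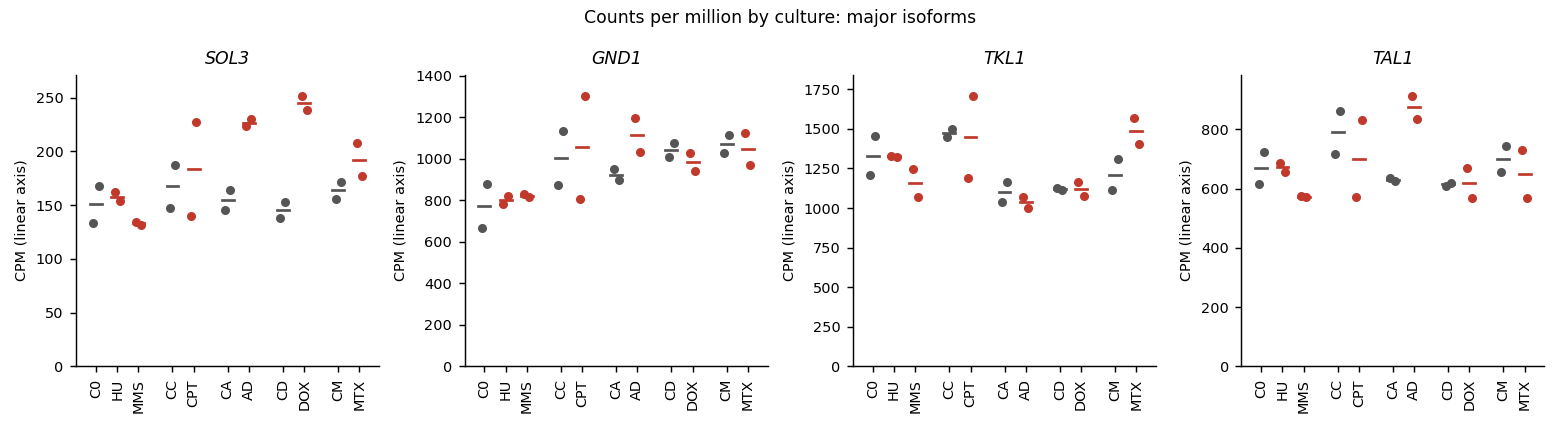
CPM by culture (points) with the group mean (line) for the 4 major isoforms; vehicles are grey, treatments red, and each linear axis starts at 0. SOL3 is the only gene of the 4 with separate groups for both DOX and AD, while TAL1 and GND1 have them for AD. TKL1 is the most abundant of the 4 by this measure, between 1002.8 and 1706.1 CPM.

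The balance within each pair was followed as the share of the stress-induced isoform in the summed level per length of both. GND2 made up 1.56% ± 0.0778 (SD, n = 2) of its pair in CM and 10.1% ± 0.629 with MTX, 1.71% ± 0.0424 in CD and 6.94% ± 1.82 with DOX, and 2.43% ± 0.184 in C0 and 6.57% ± 1.04 with HU. CPT cultures had 4.39% and 4.17% against 1.93% and 2.07% in CC. GND1 therefore remained the major isoform in every culture, including the one where GND2 peaked at 10.5%. TKL2 ranged from 1.21% (CC culture 1) to 5.82% (MTX culture 1) of its pair, NQM1 from 2.12% (CC culture 1) to 7.79% (CA culture 1), and SOL4 from 1.36% (AD culture 2) to 19.4% (CA culture 1).

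**Figure D4:**
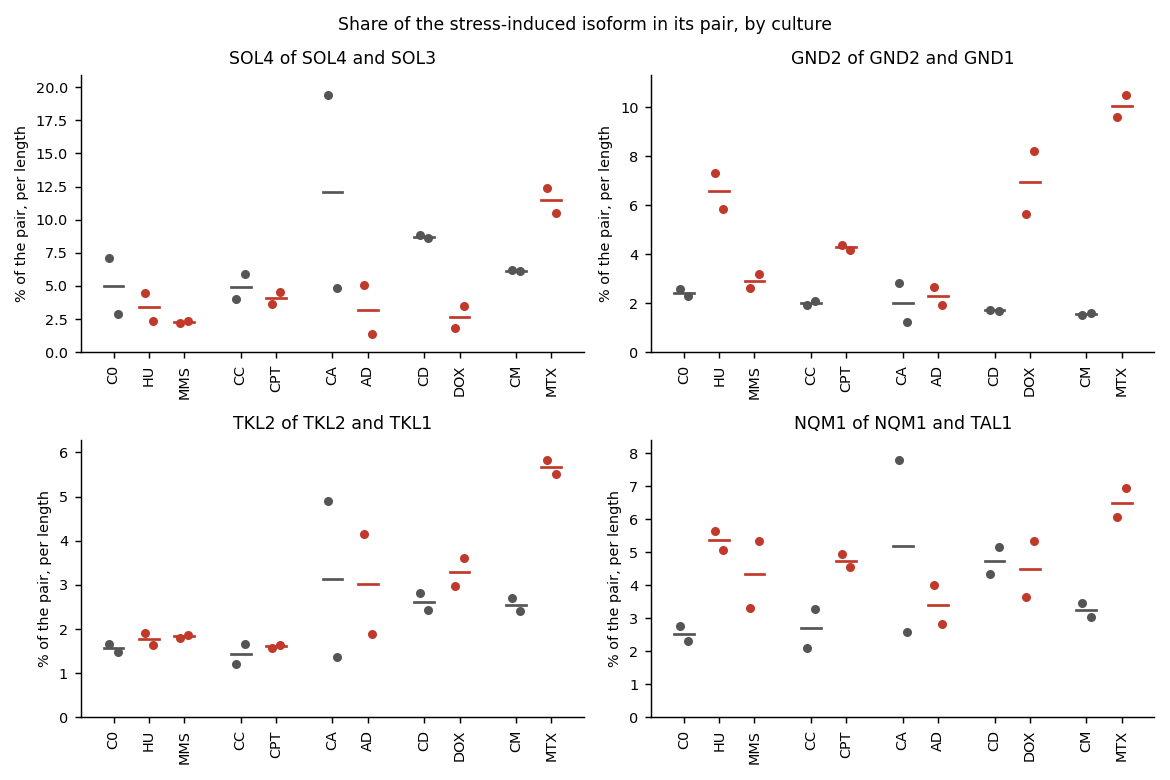
Share of the stress-induced isoform in the summed RPKM of its pair, by culture (points) with the group mean (line); vehicles are grey and treatments red. The share of GND2 lay between 9.61% and 10.5% with MTX and at or under 2.83% in all vehicle cultures, while the highest share of SOL4, 19.4%, was in CA culture 1, a vehicle culture.

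The log2 ratio of the stress-induced to the major isoform was compared between treated and vehicle cultures over all 6 treatments, with an exact permutation test within the 5 sets of a vehicle and its treatments. The ratio of GND2 to GND1 was higher by 1.32 on average and higher in 6 of 6 treatments (two-sided exact p = 0.000926; adjusted over the 4 pairs 0.0037). It ranged from 0.25 with MMS and 0.28 with AD to 2.77 with MTX. The ratio of NQM1 to TAL1 was higher by 0.53 and higher in 4 of 6 treatments (exact p = 0.0297, adjusted 0.0595). The ratio of TKL2 to TKL1 was higher by 0.36 and higher in 6 of 6, most of it from MTX with 1.17 (exact p = 0.0619, adjusted 0.0619).

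The ratio of SOL4 to SOL3 had a mean of -0.76 and was higher in 1 of 6 treatments, MTX (exact p = 0.0488, adjusted 0.0619). It was lowest with AD, at -1.97. Among the 4 pairs only the GND pair thus passed after adjustment, and it passed in each test without 1 of the 5 sets (adjusted p between 0.00247 and 0.0222). The other 3 pairs depended on which sets entered. Without the set of CA the adjusted exact p was 0.00412 for both TKL2 to TKL1 (0.41) and NQM1 to TAL1 (0.73). Without the set of CM it was 0.0154 for SOL4 to SOL3 (-1.10), and without the set of CD it was 0.0444 for NQM1 to TAL1 (0.66).

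For SOL4, TKL2, NQM1 and GND2 the cultures of a group differed most in CA on the log2 scale. CA culture 1 held 36.0 CPM of SOL4, 53.3 CPM of TKL2, 53.3 CPM of NQM1 and 27.9 CPM of GND2, where culture 2 held 8.53, 16.2, 16.5 and 11.1 CPM. The summed level of 20 general stress genes (Msn2 and Msn4 targets) was 11274.6 CPM in CA culture 1 and 3370.3 CPM in culture 2, and in AD it was 6116.0 and 2167.0 CPM. Their part in the AD comparison was not tested. No gene of the 10 was called for AD without CA culture 1, nor without any other of the 4 cultures.

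The vehicles were compared to see how far medium and solvent moved the same genes. CD and C0 are water controls in SC and YEPD, and no gene of the 10 differed between them in edgeR, where 8.87% of all genes were higher and 11.2% lower in SC. The largest differences were in SOL4 (14.2 ± 0.748 against 7.79 ± 3.85 CPM; log2 0.86, adjusted p = 0.368) and NQM1 (30.5 ± 4.22 against 17.2 ± 0.349 CPM; log2 0.83, adjusted p = 0.166). GND1, at 1042.8 ± 47.7 against 772.6 ± 148.8 CPM, was the 1 gene of the 10 with an unadjusted p under 0.05 (adjusted 0.105), where 35.7% of all genes had one, and DESeq2 called 0 of the 10.

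Among solvents, CC against C0 had no edgeR call in the 10, 1 unadjusted p under 0.05 and 0 calls by DESeq2, where 0.189% of all genes were higher, 0.0315% lower and 17.1% under 0.05 before adjustment. That 1 gene was ZWF1, which held 235.2 and 222.0 CPM in CC against 141.1 and 175.7 CPM in C0 (log2 0.53, SE 0.24, adjusted p = 0.268). CA against CD and CM against CD had 0 edgeR calls among the 10 and 0% of all genes called in either direction. At an unadjusted p under 0.05 they had 0 of the 10 each, where 3.29% and 3.17% of all genes had one, and DESeq2 called none of the 10.

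The authors' deposited tables of comparisons hold 1 DESeq2 test per treatment. At an adjusted p under 0.05 the authors' deposited tables called 3 of the 10 for HU, 4 for MMS, 3 for CPT, 3 for AD, 5 for DOX and 6 for MTX. Of all features with an adjusted p, the authors' deposited tables called 17.2% for HU, 30.4% for MMS, 11.5% for CPT, 18.3% for AD, 59.7% for DOX and 38.4% for MTX, so that the 5 of 10 for DOX did not exceed the background. All 7 calls made here were among them, namely GND2 for HU, GND2, SOL3 and RKI1 for DOX, and GND2, TKL2 and RKI1 for MTX. The authors' deposited tables put GND2 at a log2 fold change of 2.81 for MTX, 2.02 for DOX and 1.57 for HU, and RKI1 at -1.33 for DOX and -0.95 for MTX. In the authors' deposited tables GND2 was called for HU, MMS, CPT, DOX and MTX, and RKI1 for HU, CPT, AD, DOX and MTX. The use of technical replicates in those tests was not stated in the labels or headers.

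The other enzymes of the pathway and its exits were taken from a list of 11 genes. With DOX 3 of the 11 rose and 1 fell, where 21% and 20.2% of all genes did, so the list as a whole did not exceed the background. RPE1, the epimerase that competes with Rki1 for ribulose 5-phosphate, rose by 0.93 on the log2 scale (SE 0.16, edgeR adjusted p = 0.000309), where RKI1 fell by 1.34. SHB17, the sedoheptulose bisphosphatase that feeds ribose synthesis, rose by 0.83 (adjusted p = 0.000199), and RBK1, the ribokinase, by 0.62 (adjusted p = 0.00875). SOL1, a lactonase relative whose protein is known from tRNA export, fell by 1.47 (adjusted p = 0.000602).

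With MTX 2 of the 11 rose and none fell, against 10.8% and 9% of all genes. That share, too, was near the background. RPE1 rose by 0.50 (SE 0.16, edgeR adjusted p = 0.0358) and RBK1 by 0.53 (SE 0.17, adjusted p = 0.0395). None of PRS1 to PRS5, whose products turn ribose 5-phosphate into the phosphoribosyl donor of nucleotide synthesis, passed with MTX or DOX. With HU, MMS, CPT and AD, 0 of the 11 were called by edgeR, with 3, 2, 2 and 3 at an unadjusted p under 0.05 and 0, 0, 1 and 0 called by DESeq2. Such an unadjusted edgeR p was held by 1018 of all 6344 genes with HU. The shares were 24.6% of all genes with MMS, 15.5% with CPT and 19.5% with AD. Between the water controls 3 of the 11 differed, with RBK1 higher in SC (log2 0.60, edgeR adjusted p = 0.0233) and PHO13 (log2 -0.50, adjusted p = 0.0241) and PRS4 (log2 -0.52, adjusted p = 0.0422) lower, where 8.87% and 11.2% of all genes were called.

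Other sources of NADPH were a list of 8 genes, of which 1 fell with HU and 2 with MMS, where 0.93% and 4.7% of all genes fell. ALD6, the cytosolic acetaldehyde dehydrogenase that supplies NADPH beside Zwf1, fell by 0.61 on the log2 scale with HU (SE 0.14, edgeR adjusted p = 0.0227) and by 0.68 with MMS (SE 0.14, adjusted p = 0.00449). POS5, the mitochondrial NADH kinase, fell by 0.71 with MMS (adjusted p = 0.00286). With DOX 1 rose and 1 fell, and with MTX 1 rose, shares that were near or under the backgrounds given above. With DOX IDP1, a mitochondrial isocitrate dehydrogenase, rose by 0.79 (adjusted p = 0.00156) and YEF1, an NADH kinase, fell by 0.97 (adjusted p = 0.00739). With MTX MAE1, the malic enzyme, rose by 0.87 (adjusted p = 0.0311). CPT and AD had 0 of the 8 in edgeR, 1 and 2 at an unadjusted p under 0.05, and 0 by DESeq2. Of all genes, 15.5% with CPT and 19.5% with AD had such an unadjusted p. POS5 was higher with HU than with MMS (log2 0.67, adjusted p = 0.00874). Of the water controls, SC had less ALD6 (log2 -1.49, adjusted p = 5.45e-06) and more IDP3, the peroxisomal isocitrate dehydrogenase (log2 0.85, adjusted p = 0.0207).

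The general stress list held 20 genes. With MTX 4 of the 20 rose and none fell, where 10.8% and 9% of all genes did. They were HSP26 (log2 2.79, SE 0.41, edgeR adjusted p = 0.000348) and HSP12 (log2 2.87, SE 0.62, adjusted p = 0.00582), genes of small heat shock and membrane stress proteins, with GRE1, a hydrophilin gene (log2 1.23, adjusted p = 0.0053), and YGP1, of a secreted glycoprotein (log2 0.56, adjusted p = 0.0385). With DOX 3 rose and 5 fell, against 21% and 20.2% of all genes, a share near the background. HSP26 (log2 3.86, adjusted p = 9.01e-06), SSA4, an Hsp70 gene (log2 3.48, adjusted p = 9.39e-06), and GRE1 (log2 1.57, adjusted p = 0.000413) rose, and HXK1, a hexokinase gene, fell (log2 -2.89, adjusted p = 0.00308).

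With MMS 2 of the 20 rose and 1 fell, against 6.07% and 4.7% of all genes. SPI1, of a cell wall protein (log2 1.38, SE 0.39, edgeR adjusted p = 0.0287), and HSP26 (log2 1.36, adjusted p = 0.0363) rose, and HOR7 fell (log2 -1.26, adjusted p = 0.00756). With HU, CPT and AD 0 passed in edgeR, with 1 each at an unadjusted p under 0.05 and 0, 0 and 1 by DESeq2. Such an unadjusted p was held by 1018 of all 6344 genes with HU, 15.5% with CPT and 19.5% with AD. The median log2 fold change of the list was 0.25 with MTX, -0.71 with DOX and 0.01 with HU. HOR7 was higher with HU than with MMS (log2 1.53, adjusted p = 0.0044), and HSP12 was higher in CD than in C0 (log2 2.70, adjusted p = 0.0105).

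The regulators were a list of 7 genes. Of these, 1 fell with HU and 1 rose with CPT, where 0.93% of all genes fell with HU and 1.91% rose with CPT. With MMS 2 rose and 1 fell, against 6.07% and 4.7% of all genes. With DOX 1 rose and 1 fell, against 21% and 20.2%, so the list did not exceed the background there. With MTX 3 rose and 1 fell, against 10.8% and 9%. With AD 0 passed in edgeR and DESeq2 called 0. There 1 had an unadjusted edgeR p under 0.05, as had 19.5% of all genes. STB5, whose protein activates genes of NADPH supply in yeast, fell by 0.56 on the log2 scale with HU (SE 0.13, edgeR adjusted p = 0.0255), by 0.63 with MMS (adjusted p = 0.00483) and by 0.65 with MTX (adjusted p = 0.00312). GCN4, whose protein activates amino acid synthesis genes, rose by 0.79 with MMS (SE 0.16, adjusted p = 0.00431) and by 0.82 with MTX (adjusted p = 0.0028). It was also higher in CC than in C0 (log2 0.94, adjusted p = 0.0393).

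MSN4 rose by 0.88 with MMS (edgeR adjusted p = 0.00591) and by 0.71 with MTX (adjusted p = 0.0154), and MSN2 by 0.59 with MTX (adjusted p = 0.0459). YAP1, the oxidative stress factor, rose by 0.53 with CPT (SE 0.13, adjusted p = 0.0319) and by 0.48 with DOX (adjusted p = 0.00669). GCR1 and GCR2 encode activators of glycolytic genes. GCR2 fell by 1.06 with DOX (SE 0.23, adjusted p = 0.00193), and GCR1 was higher with HU than with MMS (log2 0.54, adjusted p = 0.0261).

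The genes most like each member in their pattern were sought by Pearson's r of log2 CPM over the 22 cultures, which share their libraries and scaling, and are given as a description. For GND2 they were AMS1, the vacuolar alpha-mannosidase (r = 0.936), BNA2, of NAD synthesis (0.901), and HSP31, a chaperone gene (0.895). For RKI1 they were SAS5, of a histone acetyltransferase (0.947), CMC4 (0.931) and AAH1, the adenine deaminase (0.928). The leading gene was RTN2 for SOL4 (0.938), BOL2 for SOL3 (0.918), DSF1 for NQM1 (0.913) and URA10 for TKL2 (0.906). It was MGR2 for GND1 (0.867), NPR1 for TKL1 (0.865), SYP1 for ZWF1 (0.849) and DPP1 for TAL1 (0.78).

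Within the set, over the same 22 cultures, r was -0.81 between GND2 and RKI1 and -0.69 between SOL3 and RKI1. Among the 6 pairs of stress-induced isoforms r was 0.74 between SOL4 and TKL2, 0.69 between TKL2 and NQM1, 0.68 between GND2 and NQM1, 0.67 between GND2 and TKL2, 0.52 between SOL4 and NQM1 and 0.22 between SOL4 and GND2. Among the 6 pairs of major isoforms r was 0.65 between SOL3 and GND1, 0.62 between GND1 and TAL1 and 0.56 between SOL3 and TAL1. For TKL1 it was 0.31 with TAL1, 0.19 with GND1 and 0.11 with SOL3. Between the isoforms of a pair r was 0.15 for GND1 and GND2, 0.13 for TKL1 and TKL2, 0.09 for SOL3 and SOL4 and 0.06 for TAL1 and NQM1.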

How the data were processed

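RNA-seq libraries of 22 yeast cultures in 11 groups were analysed from the counts. The authors made the counts with featureCounts 1.6.0 on sacCer3 transcripts, per the file headers. They are unnormalized reads per feature, with no strand option, and reads over several features were left out. Alignment names in the file headers contain bowtie2, mskDup and non-redundant, which points to removed duplicates, a step that lowers abundant genes more in deeper libraries. Of Bowtie2 the version was not given in the sources used. The authors' deposited tables also hold DESeq2 log2 fold changes and adjusted p-values per gene, which are only set beside the values computed here.

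Technical replicates were summed per culture. Features were filtered with filterByExpr (minimum count 10, minimum total 15; 6344 left), scaled by TMM and fitted in edgeR 4.0.16 (R 4.3.3), with 1 mean per group over 22 cultures and a robust quasi-likelihood F test. P-values were adjusted by Benjamini-Hochberg over all 6344 genes, with a threshold of 0.05. CPM are TMM-scaled, and RPKM are CPM per kilobase of coding length. The standard error is the log2 fold change over the root of F. Isoform ratios used a pseudocount of 0.5 RPKM and 19440 arrangements of labels. Alternatives were other size factors, no filter, DESeq2 1.42.0, only the groups compared, a replicate block, and each culture left out. The procedure was tested on simulated data.

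All 10 members are named. Of context lists, the counts called are given, with values for up to 4 called genes by smallest p, and for each member the most correlated genes with a standard name and at least 10 CPM. The members and lists were chosen with earlier results of these data known. One CM library's description gives another technical replicate number than its title, and the title was followed. Precision is limited by the totals of 6.82 to 15.08 M counts per library and by the spread between the 2 cultures of a group.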

Additional observations from a re-analysis of the deposited data

Results flagged for a closer look

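In 2 of the 10 genes the responses to the 6 treatments differed from one another. For GND2 the edgeR adjusted p of that difference was 0.0058 and for RKI1 it was 0.00642. The same test passed for 24.8% of all genes, so 2 of 10 did not exceed the background. GND2 was higher by 2.78 on the log2 scale with MTX and by 0.37 with MMS. RKI1 was lower by a log2 fold change of -1.34 with DOX and -0.26 with MMS. MTX and DOX were given in SC and MMS in YEPD, so drug and medium cannot be told apart in these contrasts. AD, also given in SC but with another vehicle, had log2 fold changes of 0.46 for GND2 and -0.36 for RKI1.

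Single libraries stood apart from the other 3 of their group in 6 of the 110 combinations of group and gene. The rule used flags about 1 in 20 where 4 values are independent. Here the 4 libraries are 2 technical replicates of each of 2 cultures, and genes share libraries. That rate therefore does not apply, and the flags are given as a description. In CA culture 1 the second technical replicate had 134.1 CPM of SOL3, below the 169.0 to 170.6 CPM of the others, and 965.2 CPM of TKL1, below 1192.1 to 1203.8 CPM. In AD culture 1 the second technical replicate had 1184.2 CPM of TKL1, above 994.6 to 1009.6 CPM. In CM culture 2 the second technical replicate had 837.9 CPM of TAL1, above 638.4 to 671.4 CPM, and 281.0 CPM of RKI1, above 236.3 to 242.5 CPM. In CPT culture 2 the first technical replicate had 43.4 CPM of NQM1, above 29.7 to 31.4 CPM. CPM in this paragraph are not scaled by TMM.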

How the results depend on the processing

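Size factors by RLE and no filter on low counts left every count of called members as it was. With the replicate block, which pairs cultures by a number the labels do not tie to a day, 3 members were called for HU (GND2, NQM1 and RKI1), 1 for MMS (SOL4), 2 for CPT (GND2 and RKI1), 3 for AD (SOL3, SOL4 and TAL1), 4 for DOX (the 3 above with SOL4), 6 for MTX (the 3 above with NQM1, SOL4 and ZWF1), 1 for HU against MMS (GND2) and 4 for CD against C0 (GND1, NQM1, SOL4 and TKL2). In that order the block called 8.7%, 19.5%, 8.46%, 14.1%, 51.6%, 32.4%, 11.7% and 34.3% of all genes, more than without it in each of the 8. The correlation of same-numbered cultures' deviations ranged from -0.24 (MTX and CM) to 0.71 (AD and CA), so the numbers were not taken as pairs. Fits of only the groups compared called 2 for HU, 2 for MMS, 5 for DOX, 6 for MTX, 1 for HU against MMS and 2 for CD against C0, and 5.25%, 13.6%, 59.2%, 36.2%, 9.34% and 26.2% of all genes. DESeq2 called 2 for CPT and 1 for HU against MMS, and 4.81% and 6.53% of all genes. The cause of these differences was not tested.

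With each culture left out in turn, where the lone culture was taken to vary like the other groups, the members called ranged from 0 to 0 for HU, from 0 to 1 for CPT (GND2, without CPT replicate 1), from 3 to 3 for DOX and from 2 to 2 for MTX, where TKL2 was lost. The ratio of GND2 to GND1 ranged from 1.02 to 1.55 over the alternatives and passed in all 7. That of SOL4 to SOL3 passed without the set of CM (-1.10), that of TKL2 to TKL1 without the set of CA (0.41), and that of NQM1 to TAL1 without the set of CA (0.73) or CD (0.66). The difference between responses held for GND2 and RKI1 with RLE, without the filter and with the block, alternatives added after the data were seen. No result reversed. SOL4, at 59 to 907 counts per culture, is the member with the fewest reads, and culture 1 and 2 of CA differed most in it on the log2 scale.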

Other observations

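Genes repressed by glucose were a list of 21. With DOX 5 rose and 8 fell, where 21% and 20.2% of all genes did. YAT1, a carnitine acetyltransferase gene, rose by 1.98 on the log2 scale (SE 0.31, edgeR adjusted p = 0.000113) and MLS1, of the glyoxylate cycle, by 1.36 (adjusted p = 9.01e-05), while MDH2, the cytosolic malate dehydrogenase, fell by 2.02 (adjusted p = 4e-04) and CIT2, the peroxisomal citrate synthase, by 1.28 (adjusted p = 0.00015). With MTX 4 rose and none fell, against 10.8% and 9% of all genes. MDH2 rose there by 1.75 (SE 0.34, adjusted p = 0.00272), SFC1, a mitochondrial carrier, by 2.10 (adjusted p = 0.00379), PCK1, of gluconeogenesis, by 0.92 (adjusted p = 0.00819) and CAT2, the carnitine acetyltransferase of mitochondria and peroxisomes, by 0.83 (adjusted p = 0.0368). With CPT PCK1 alone rose, by 0.88 (adjusted p = 0.0409), and with AD FBP1 alone fell, by 1.39 (adjusted p = 0.0332). With HU and MMS 0 passed in edgeR, with 4 each at an unadjusted p under 0.05 and 0 by DESeq2. Such an unadjusted p was held by 1018 of all 6344 genes with HU and by 24.6% with MMS. Between the water controls 5 were higher in SC and 1 was lower, against 8.87% and 11.2% of all genes. MDH2 (log2 1.68, adjusted p = 0.00495) and CYB2, a lactate dehydrogenase gene (log2 2.00, adjusted p = 0.0264), were higher, JEN1, the lactate permease, differed by 3.01 (SE 0.92, adjusted p = 0.0371), and PCK1 was lower by a log2 fold change of -0.81 (adjusted p = 0.02). The summed level of the list was 13211.0 CPM in CA culture 1 and 7080.7 CPM in CA culture 2, the group in which SOL4 also varied most.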
